A study of Mus musculus with 4 samples.

Results

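Cyr61, Nov and Ccdc80 encode secreted proteins of the extracellular matrix, and their transcripts were followed here through single-cell RNA sequencing of the mouse ventromedial prefrontal cortex (vmPFC). These 3 genes, of 31053 in the count matrices, were chosen by name. The choice used measured values of the same data, namely the difference between neurons with many and with no transcripts of a retrograde viral barcode and the levels in the excitatory subtypes, so those values are given below as description without a test. The tests concern other splits of the neurons, by transcripts of activity genes and by detection of another of the 3 genes.

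Every animal was a male C57BL/6 mouse, labelled as 8 weeks old, which the study's methods give as the age at injection, with tissue taken 6 weeks later. All had received recombinant adeno-associated viruses (rAAV2-retro, with EGFP and a barcode driven by a CAG promoter) on 1 side, in the agranular insular cortex, dorsomedial striatum, mediodorsal thalamus, basolateral amygdala and lateral hypothalamus. Such virus enters axon endings at the injected site and is carried back to the cell body, and no animal without virus was sequenced. There were 3 unsorted libraries, titled mouse 1, 2 and 3, and 1 library of cells sorted for EGFP and pooled from 3 mice. The titles and the study's methods name 1 mouse for each unsorted library. The p-values compare groups of neurons within libraries and measure the spread of that difference over the 4 libraries only.

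The CCN proteins are cysteine-rich matricellular proteins that bind integrins and heparan sulfate proteoglycans. Cyr61 (CCN1) is a classical immediate early gene and, like Ctgf (CCN2), a well known target of the Hippo effectors YAP and TAZ, which act through TEAD factors. Nov (CCN3) is the relative best known from neurons of the cortex. Ccdc80 is a secreted matrix protein with domains shared with Srpx and Srpx2, and it is known from fat and connective tissue.

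By Ensembl identifier, Cyr61 (ENSMUSG00000028195, renamed Ccn1) is a gene of 5 exons on the minus strand at chr3:145646976-145649981 of GRCm38, the build of the files. Nov (ENSMUSG00000037362, Ccn3) has 5 exons on the plus strand at chr15:54745702-54754039. Ccdc80 (ENSMUSG00000022665) lies on the plus strand at chr16:45093402-45128077, with 6 annotated transcripts of up to 9 exons. The upstream region of Cyr61 is shown because its transcripts moved with those of activity genes. It is the RefSeq stretch of 250 bases before the transcription start (GRCm38.p6, chr3:145649986-145650235, minus strand, 5′ to 3′), with a TEAD motif and the core of a cAMP response element in capitals.

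Cyr61: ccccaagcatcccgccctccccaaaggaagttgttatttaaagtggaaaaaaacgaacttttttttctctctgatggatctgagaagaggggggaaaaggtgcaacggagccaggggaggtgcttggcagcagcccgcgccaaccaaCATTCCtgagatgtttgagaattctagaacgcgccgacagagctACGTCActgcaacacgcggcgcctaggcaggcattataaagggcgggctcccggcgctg

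Both strands were searched. CATTCC, the TEAD motif, occurred once, and 12.6% of 32851 promoter windows of the same length held it. ACGTCA, the core of the cAMP response element, occurred once, against 6.47% of the windows. The full element TGACGTCA (in 1.55% of windows), the AP-1 motif TGANTCA (6.75%) and the CArG box bound by SRF (1.47%) had no match. These are matches of letters only. Of the 3 genes, 1 had a promoter entry in the tables used.

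The unsorted matrices held 8040, 7443 and 7243 cell barcodes and the sorted matrix 2075. The authors' metadata assign 2816, 2486, 2463 and 1603 of them to 7 excitatory subtypes, and these neurons had median totals of 21344 to 23213 UMIs (unique transcript molecules) when unsorted and 31669 when sorted. Between 5 and 30 cell barcodes were shared by a pair of libraries. The subtype labels were checked against marker genes. Each subtype had the highest level of its own label gene, Sulf1 was higher in L6-Npy than in L6-Syt6 (96.0 against 68.7 CPM, counts per 1000000 summed UMIs), and Cux2 marked both upper-layer subtypes. CPM of 3′ UMIs are not compared between genes below, only between groups of cells. Intervals of counts, drawn as bars where plotted, cover counting error only.

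In excitatory neurons, Cyr61 was a gene of the L6-Syt6 subtype, the corticothalamic neurons of layer 6. Its level there was 209.0, 198.6 and 215.0 CPM in unsorted libraries 1 to 3 and 262.8 CPM in the sorted library. It was next highest in L5-Htr2c, at 28.7 ± 3.33 CPM (SD, n = 3 unsorted libraries), against 207.5 ± 8.31 CPM in L6-Syt6. The other 5 subtypes lay between 7.31 ± 8.75 CPM in L2/3-Calb1 and 13.6 ± 8.49 CPM in L5-Bcl6, and every neighbouring pair in that order overlapped. The share of neurons with a Cyr61 UMI was 65.5% ± 0.46 in L6-Syt6 and 4.52% ± 0.99 in L6-Npy. After each neuron was thinned to 10000 UMIs, these shares were 54.3% and 2.77%. For scale, 0.81% ± 0.32 of oligodendrocytes (median 4556 to 4873 UMIs) had a Cyr61 UMI. Inhibitory neurons (median 12626 to 13844 UMIs) gave 4.77% ± 0.97, like L6-Npy (median 19031 to 20812 UMIs). They gave 0.58% when thinned to 2000 UMIs, the depth used for cells outside the metadata. That share cannot be set against the 2.77% of L6-Npy at 10000 UMIs.

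Nov was present in every excitatory subtype. It was highest in L2/3-Calb1, where the unsorted libraries gave 200.6, 201.1 and 192.1 CPM and the sorted one 260.4 CPM, and where 96.5% ± 1.15 of neurons had a UMI. L5-Bcl6 (183.4 ± 19.6 CPM) overlapped with it. L6-Npy followed at 157.9 ± 10.5 CPM, then L5-Htr2c at 92.9 ± 10.2 CPM and L5-S100b at 72.7 ± 1.03 CPM. L6-Syt6 (50.8, 51.7, 51.2 and, sorted, 54.3 CPM) and L2/3-Rorb (50.5 ± 3.48 CPM) were lowest and overlapped. The 2 subtypes of layer 6 thus stood far apart in both CCN genes, in opposite directions.

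Ccdc80 was highest in L6-Npy. The 4 libraries gave 39.5, 40.4, 39.2 and, sorted, 41.3 CPM there, and 50.4% ± 2.82 of neurons had a UMI. L5-S100b (22.7 ± 1.87 CPM) and L2/3-Calb1 (18.6 ± 3.19 CPM) came next and overlapped, and L2/3-Rorb was at 10.6 ± 0.29 CPM. L6-Syt6 held 5.77, 6.23 and 7.87 CPM unsorted and 10.99 CPM sorted. L5-Bcl6 was at 2.91 ± 1.05 CPM. In L5-Htr2c 1 UMI was counted per unsorted library (0.64 ± 0.06 CPM), which is at the level of inhibitory neurons (0.50 ± 0.30 CPM). Ctgf, another CCN gene and a marker of layer 6b, was at 88.7 ± 2.78 CPM in L5-Htr2c and 38.5 ± 0.70 CPM in L6-Syt6, and below 3 CPM in each of the other subtypes.

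**Figure D1:**
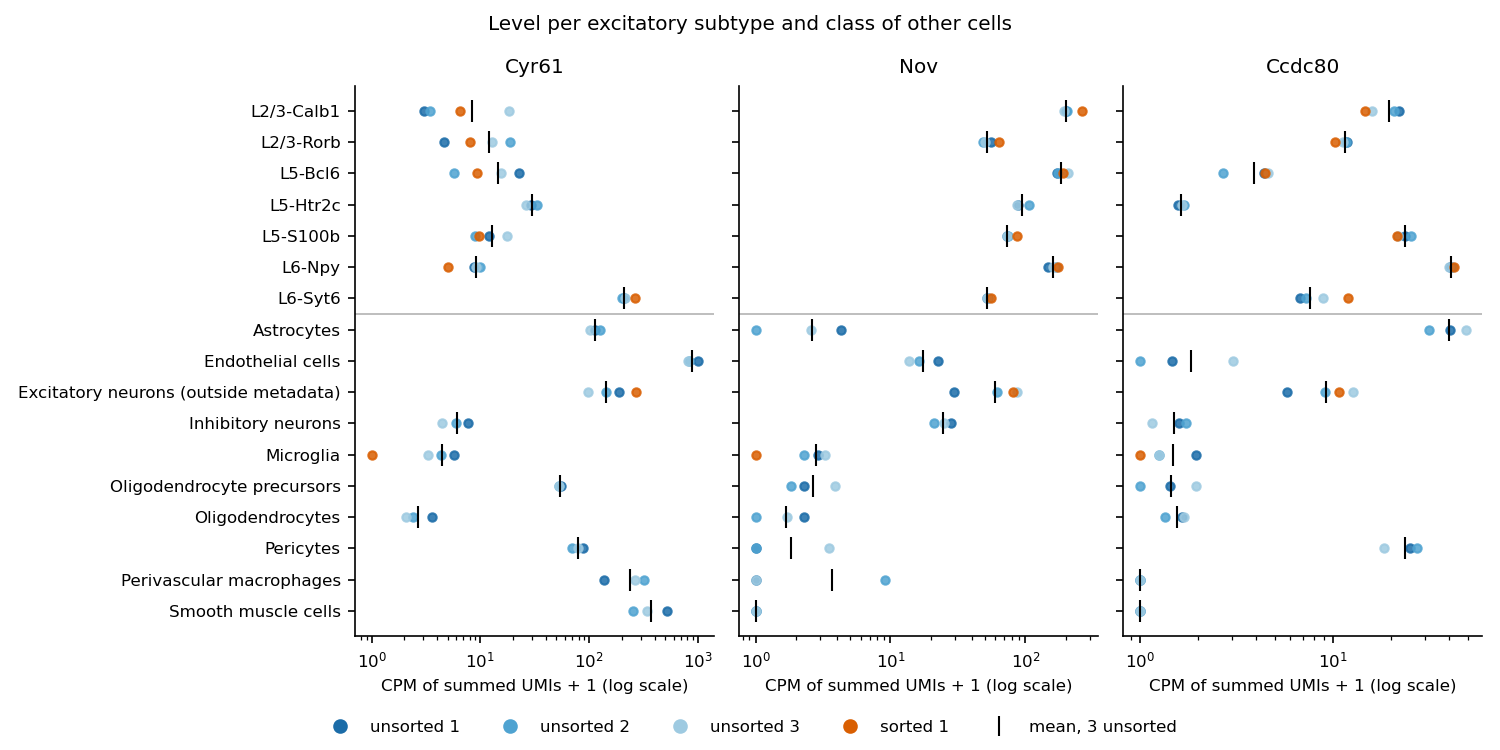
Level of Cyr61, Nov and Ccdc80 (CPM of summed UMIs + 1, log scale) in the 7 excitatory subtypes of the metadata and, under the grey line, in classes of the other cells, 1 point per library with at least 20 such cells; the bar is the mean of the 3 unsorted libraries. Among the subtypes Cyr61 stands apart in L6-Syt6 at 207.5 CPM, while Nov is highest in L2/3-Calb1 and Ccdc80 in L6-Npy.

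Outside the metadata, 11707 cells of the unsorted libraries passed the filters and were clustered without the 3 genes. By mean level, and leaving a small fibroblast cluster aside, Cyr61 was highest in endothelial and smooth muscle cells, while pericytes had less than astrocytes. Endothelial cells had 995.2, 829.2 and 803.6 CPM in unsorted libraries 1 to 3, smooth muscle cells 371.6 ± 139 CPM, perivascular macrophages 239.2 ± 92.9 CPM and pericytes 77.6 ± 9.25 CPM. Astrocytes (112.5 ± 11.3 CPM) and oligodendrocyte precursors (52.4 ± 1.04 CPM) also held it. Inhibitory neurons (5.05 ± 1.61 CPM), microglia (3.46 ± 1.23 CPM) and oligodendrocytes (1.68 ± 0.82 CPM) were lowest. A cluster of 24 fibroblasts, with 6 in the smallest library, was at 997.6 ± 267 CPM. Excitatory neurons that the metadata leave out, with medians of only 1576 to 1678 UMIs, had 141.8 ± 44.4 CPM.

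Nov was mainly neuronal. Those same excitatory neurons had 58.4 ± 28.5 CPM and inhibitory neurons 23.6 ± 3.46 CPM. Among inhibitory clusters it was at 59.0 CPM in the one led by Cnr1 and Cck and at 49.0 CPM in one led by Npy, Gad2 and Reln, and at 4.75 CPM in the largest Sst cluster and 3.92 CPM in the Pvalb cluster, all libraries summed. Endothelial cells had 16.5 ± 4.41 CPM. Most of it lay in 1 of 2 endothelial clusters, of 421 cells, with 53.6 CPM in 3.56% of its cells, against 2.57 CPM in the other, of 1181 cells. Smooth muscle showed no Nov UMI in 96 cells of 4101 to 4391 median UMIs, which allows up to 3.12% of cells with a UMI at that depth and sets no limit on cells that express the gene.

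Ccdc80 was found in astrocytes (39.2 ± 8.60 CPM) and pericytes (22.6 ± 4.61 CPM, 5.54% ± 0.97 of cells). The range in astrocytes, 30.6 to 47.8 CPM, spanned that of L6-Npy neurons. Endothelial cells, microglia, both oligodendrocyte classes and inhibitory neurons were each below 1 CPM, and no UMI was found in the 96 smooth muscle cells or in 83 perivascular macrophages (up to 3.61% of cells with a UMI allowed), again at a depth that would miss a low gene in most cells. Clusters that carried markers of more than 1 class, 1025 cells in the unsorted libraries, were not named and not used.

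Across these 7 subtypes and 10 classes, the genes whose levels followed Cyr61 most closely, by Pearson correlation of log2(CPM + 1) over 13461 genes, were Gm17501 (0.90), Ahnak and Samd9l (0.86), Flt3l (0.80) and Atp10a (0.79). All 5 were highest in endothelial cells. For Nov they were Mgea5, Gpr22 and C2cd2l (0.96), Stmn2 and Enc1 (0.95), all highest in an excitatory subtype. For Ccdc80 they were Pxdn (0.80), 4933407L21Rik and Elmo2 (0.78), Dbp and Col23a1 (0.77). Among themselves the 3 genes gave -0.25 (Cyr61 and Nov), -0.12 (Cyr61 and Ccdc80) and 0.40 (Nov and Ccdc80). The 17 points come from the same 3 libraries and differ in depth, and the values are descriptive.

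Within L6-Syt6, with 1511, 1426, 1382 and 773 neurons in the 4 libraries, Cyr61 was uneven from neuron to neuron. The median neuron held 2 UMIs in each unsorted library and 5 in the sorted one, and the highest held 42, 45, 62 and 83. The 10% of neurons with most Cyr61 carried 40.8% to 45.5% of all its UMIs. In L6-Npy they carried every Cyr61 UMI, with up to 18 in 1 neuron. Nov, by contrast, had a median of 3 to 4 UMIs per L6-Npy neuron, and the top 10% of neurons held 21.5% to 23.9% of them. Cyr61 and Nov without Ccdc80 was a frequent pattern, with 32.8%, 32.3%, 32.2% and 42.2% of L6-Syt6 neurons. Once neurons were thinned to 10000 UMIs it made up 16.8%, 18.1%, 16.9% and 21.9%, and Cyr61 alone was the most frequent pattern with 31.8% to 36.4%. All 3 genes were found in 3.90%, 4.91%, 5.79% and 12.5% of the neurons, and in 0.81% to 1.62% once each was thinned to 10000 UMIs.

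The first test asked whether the 3 genes differ between neurons with and without transcripts of activity genes. The marks were Arc, Npas4, Egr4, Fosb and Nr4a3, genes transcribed within minutes of synaptic or other stimulation. L6-Syt6 neurons with 5 or more summed UMIs of these 5 genes (1251, 1180, 1145 and 709) were compared with those with 0 (18, 21, 31 and 10). The fit (edgeR, quasi-likelihood test on counts summed per library and group, with the library as a block) called a gene where its adjusted p (Benjamini-Hochberg) was under 0.05 and its log2 fold change reached 0.5 in size. It called 123 of 13373 genes, or 0.92%. In no other subtype did every library hold 10 neurons without such a UMI.

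Cyr61 rose with the activity genes. It had 239.5, 228.1, 246.9 and 275.8 CPM in the activity-high neurons and 6.74, 12.4, 13.2 and 30.6 CPM in those with none, the latter on 2, 5, 7 and 2 UMIs. The groups were far apart in every library, and the log2 fold change was 4.38 ± 0.40 (SE, adjusted p = 6.3e-14, edgeR). Nov had 47.5 to 52.2 CPM against 40.5, 42.2, 62.3 and, sorted, 383.0 CPM, with a log2 fold change of -0.49 ± 0.26 (adjusted p = 0.62). Ccdc80 had 6.20 to 11.1 CPM against 10.1, 4.97, 11.3 and, sorted, 61.3 CPM (-0.58 ± 0.48, adjusted p = 0.78). Both high values belong to the 10 sorted neurons without activity UMIs, whose median total was 6378.5 UMIs against 36431 in the activity-high neurons of that library. Without the sorted library, Nov stood at 0.02 on the log2 scale (adjusted p = 0.98), and 393 genes were called.

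Of the 15 listed immediate early genes, all tested, 11 rose and none fell, with a median log2 fold change of 2.97 against 0.07 over all genes. Egr2 (4.96 ± 0.51), Dusp1 (3.75 ± 0.41), Fos (3.38 ± 0.48), Btg2 (3.26 ± 0.40), Junb (3.24 ± 0.51), Nr4a2 (3.15 ± 0.34), Nr4a1 (2.97 ± 0.32), Ier2 (2.74 ± 0.38), Jun (1.82 ± 0.46) and Egr3 (1.69 ± 0.36) were called, with adjusted p between 3.7e-12 and 0.025. Fosl2, at 16.0 to 21.3 CPM, had no UMI in the neurons without activity transcripts, so no fold is given. Egr1, Ptgs2, Bdnf and Homer1 did not pass. Of 13 tested YAP/TAZ target genes 1 was called, Cyr61 itself, and of 12 tested genes of the Hippo pathway none was; none of 5 tested CCN receptors was called either. Of 14 SRF target genes 5 rose, each of them also on the immediate early list. In the other direction, 2 of 5 layer 6b genes fell: Nxph4, a secreted neurexin ligand (-2.99 ± 0.49, adjusted p = 1.4e-05), and Cplx3, a complexin (-1.67 ± 0.45, adjusted p = 0.043), although their ranges over libraries overlapped. None of 8 layer 6 corticothalamic genes was called.

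The level of Cyr61 followed the number of activity UMIs stepwise. In L6-Syt6 neurons with 1 to 4 such UMIs it was 22.6 to 39.7 CPM, with 5 to 9 it was 48.1 to 50.9 CPM, with 10 to 19 it was 87.9 to 118.5 CPM and with 20 or more it was 331.7 to 364.1 CPM. No pair of neighbouring steps overlapped from 1 to 4 upwards. Nov was at 65.3 to 75.9 CPM with 1 to 4 such UMIs and at 42.5 to 46.2 CPM with 20 or more, without overlap. Ccdc80 lay between 2.79 and 7.09 CPM with 1 to 19 activity UMIs and was at 8.08 to 13.4 CPM from 20 on.

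**Figure D2:**
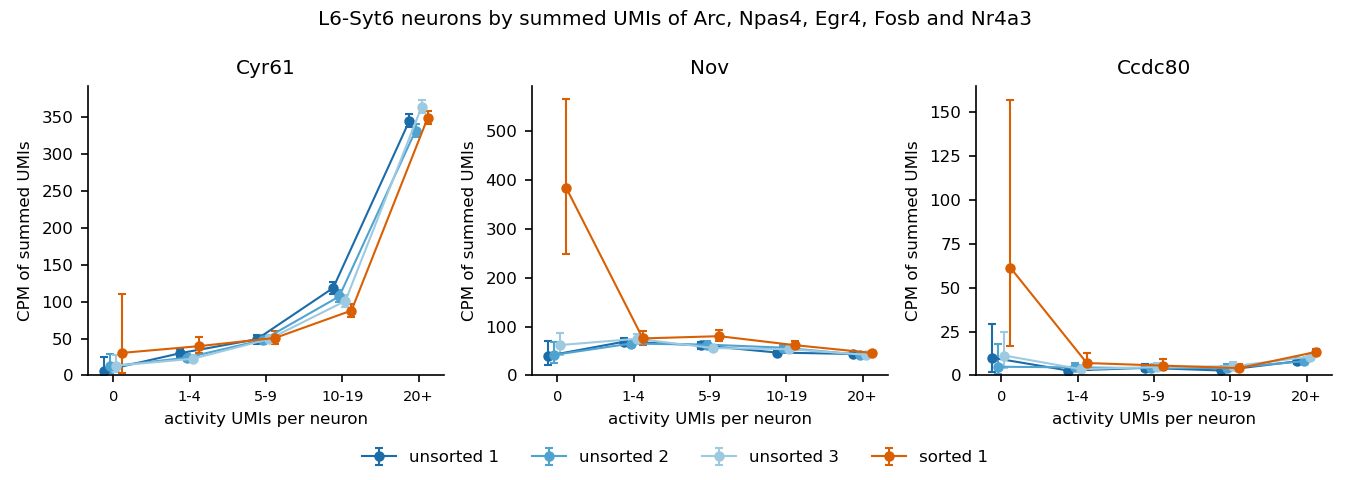
CPM of the 3 genes in L6-Syt6 neurons (vertical axes, linear from 0) by the summed UMIs of 5 activity genes per neuron (horizontal axes), 1 line per library with exact Poisson 95% intervals of the counts. Cyr61 climbs in all 4 libraries to 331.7 to 364.1 CPM, and the high Nov and Ccdc80 points at 0 come from 10 sorted neurons.

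Because neurons without any activity UMI were few and shallow, a second split was added after these values had been seen. Neurons were thinned to 10000 UMIs, and within each library and subtype neurons were ranked by activity UMIs and cut into 3 terciles, and the top tercile was compared with the bottom one. In L6-Syt6 this called 1201 of 11877 genes, or 10.1%. Cyr61 had 38.4, 44.3, 40.6 and 64.0 CPM in the bottom tercile, 131.5 to 195.3 CPM in the middle and 398.2, 390.1, 432.6 and 484.0 CPM in the top tercile (log2 fold change 3.31 ± 0.05, adjusted p = 4.3e-50, edgeR). Nov fell, from 61.8, 62.1, 69.0 and 74.3 CPM to 38.6, 47.8, 40.5 and 50.6 CPM (-0.51 ± 0.08, adjusted p = 1.3e-07). Ccdc80 rose, from 2.76, 4.08, 5.80 and 4.35 CPM to 8.26, 9.43, 10.3 and 16.0 CPM (1.36 ± 0.19, adjusted p = 5.9e-08). None of the 3 genes overlapped between bottom and top tercile. With this split 3 of 12 tested YAP/TAZ targets rose, namely Cyr61, Ccdc80 and Crim1, beside 14 of 15 immediate early genes and Yap1 of the Hippo list; the integrin subunits Itgav and Itga6 fell among 5 tested receptors. Of 4 tested layer 6b genes 3 fell, Svil (-1.74 ± 0.40), Nxph4 (-1.65 ± 0.31) and Cplx3 (-1.47 ± 0.18), and the corticothalamic gene Crym rose (0.55 ± 0.04). The part of layer 6b genes in the fall of Nov was not tested.

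The same split was made in the other subtypes, where the top tercile began at 3 to 13 activity UMIs. The share of genes called there was 1.04% in L2/3-Calb1, 1.61% in L2/3-Rorb, 1.31% in L5-Bcl6, 3.15% in L5-S100b and 3.07% in L6-Npy. Cyr61 was so low in the bottom tercile of these subtypes that it could enter a fit only through the top tercile, so its values are given without a test. In L5-Bcl6 it had 1, 1, 1 and 0 UMIs in the bottom tercile and 23, 2, 15 and, sorted, 3 UMIs in the top one. In L5-S100b it had 6, 3, 4 and 5 UMIs against 24, 18, 31 and 14, or 2.36 to 4.35 CPM against 14.6 to 30.1 CPM. In L2/3-Rorb it had 3, 1, 2 and 2 UMIs against 3, 12, 9 and 8, or 1.61 to 4.08 CPM against 4.35 to 23.5 CPM. In CPM the top tercile was the higher one in every library of these 3 subtypes, by few UMIs in several. In L2/3-Rorb of unsorted library 1 both terciles held 3 Cyr61 UMIs, in 81 bottom and 69 top neurons. In L6-Npy Cyr61 had 0.84 to 4.95 CPM against 3.30 to 18.1 CPM, and in L2/3-Calb1 the terciles overlapped. In L5-Htr2c, which the sorted library lacked, it went from 7.32, 5.13 and 13.5 CPM to 38.9, 74.2 and 44.8 CPM.

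Nov did not share this course across subtypes. In L5-S100b it went from 75.0, 87.4, 85.5 and 107.0 CPM to 64.4, 63.4, 58.3 and 60.4 CPM (-0.48 ± 0.12, adjusted p = 0.0027), just under the fold threshold. In L2/3-Calb1 the difference was -0.40 ± 0.14 (adjusted p = 0.27) and in L6-Npy -0.10 ± 0.09 (adjusted p = 0.68). In L5-Bcl6 it was -0.14 ± 0.14 (adjusted p = 0.86) and in L2/3-Rorb 0.11 ± 0.17 (adjusted p = 0.87). Ccdc80 was tested in L5-S100b (0.08 ± 0.21, adjusted p = 0.89) and L6-Npy (-0.25 ± 0.17, adjusted p = 0.52), the 2 subtypes that hold most of it, and was called in neither. Whether the change of Nov or Ccdc80 differs between subtypes was not tested.

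**Figure D3:**
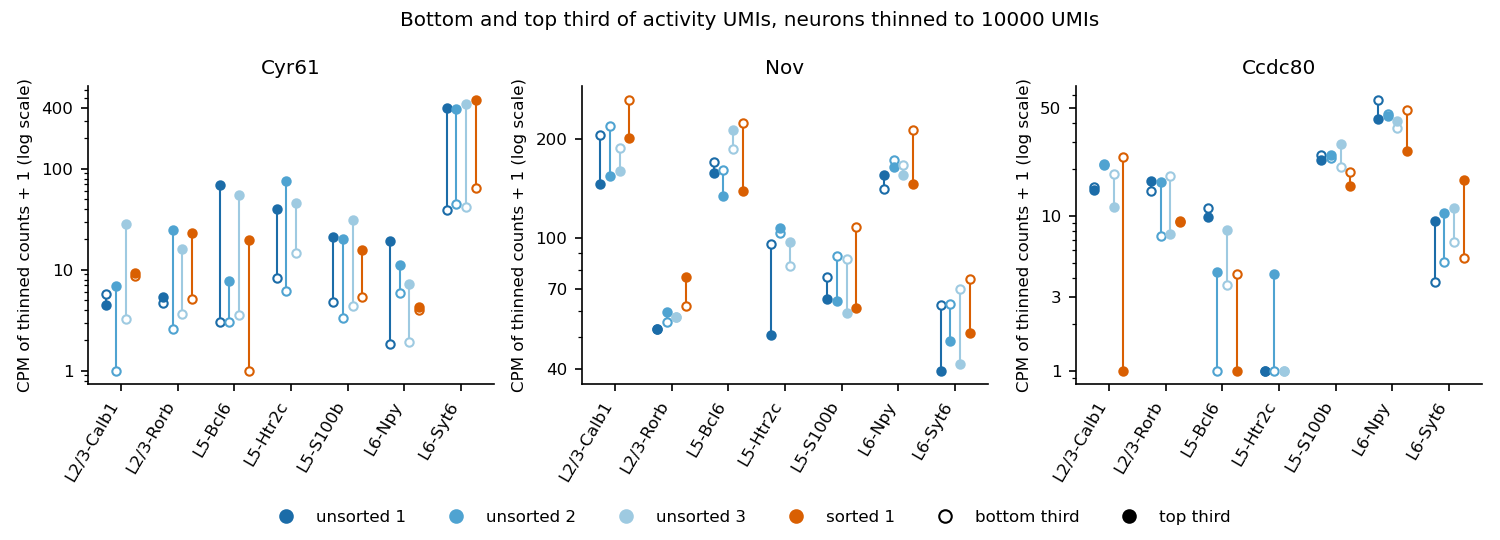
CPM of thinned counts + 1 (vertical axes, log scale) of the 3 genes in the bottom (open) and top (filled) tercile of neurons by activity UMIs, for each subtype and library. In L6-Syt6 Cyr61 runs from 38.4 to 64.0 CPM up to 390.1 to 484.0 CPM, and Nov lies lower in the top tercile in all 4 libraries.

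Activity transcripts present in the animal and those made during slice incubation and digestion cannot be told apart in these libraries. Markers of other cell types, as background RNA or fused cells would bring, were read in the same groups. Summed over 6 endothelial markers, activity-high L6-Syt6 neurons held 4.61 to 9.80 CPM and those with none 7.45 to 15.3 CPM (5 of the 6 above 0). Smooth muscle markers (5 genes) summed to 0.59 to 1.76 CPM and 0 to 7.45 CPM. Astrocyte markers (7 genes) summed to 1102 to 1397 CPM and 91.9 to 1389 CPM, and pericyte markers (6 genes) to 10.9 to 21.3 CPM and 15.3 to 57.3 CPM. Their part in the results was not tested.

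The second test split L6-Syt6 neurons by detection of each gene in turn and read the other genes. Neurons with a Cyr61 UMI (997, 928, 904 and 590) were compared with those without (514, 498, 478 and 183), and 554 of 13711 genes were called, or 4.04%. The positive neurons were also deeper, with medians of 23671 to 36961 UMIs against 20137 to 29871. Ccdc80 was higher in them in each library, at 6.60, 7.39, 8.68 and 11.6 CPM against 3.86, 3.70, 6.06 and 8.31 CPM (0.73 ± 0.11, adjusted p = 8.3e-05, edgeR). This call was lost without the library block (0.76, adjusted p = 0.12) and in barcode-zero neurons alone (0.49, adjusted p = 0.12). Nov was lower in each library, at 46.8 to 49.9 CPM against 58.7 to 72.4 CPM (-0.32 ± 0.04, adjusted p = 8.7e-06), under the fold threshold. Ctgf was higher within each library (unsorted 42.1, 42.0 and 43.9 CPM against 29.6, 33.2 and 24.4 CPM, 0.61 ± 0.07, adjusted p = 9.0e-07).

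Among the listed genes, 12 of 15 immediate early genes rose with Cyr61 and none fell (median 1.20 against -0.01 over all genes). Nr4a2 (121.0 to 137.3 against 24.4 to 31.3 CPM, 2.18 ± 0.05) and Egr2 (73.9 to 81.8 against 15.6 to 19.9 CPM, 2.16 ± 0.06) led, followed by Btg2 (1.47 ± 0.05), Dusp1 (1.46 ± 0.04), Junb (1.26 ± 0.03), Nr4a1 (1.23 ± 0.04), Fos (1.21 ± 0.03), Fosl2 (1.20 ± 0.08), Ier2 (1.11 ± 0.04), Egr3 (1.01 ± 0.03), Egr1 (0.60 ± 0.02) and Jun (0.58 ± 0.03). Of 13 tested YAP/TAZ targets, Ctgf and Ccdc80 rose and Amotl2 (-0.74 ± 0.27) and Rbms3 (-0.57 ± 0.15) fell. Once neurons were thinned to 10000 UMIs, Ctgf and Ccdc80 still rose, while neither fall was called. Yap1 itself rose (5.83 to 8.12 against 4.06 to 5.35 CPM, 0.62 ± 0.13, adjusted p = 0.0011), the only 1 of 12 tested Hippo genes. In neurons thinned to 10000 UMIs this call was lost, and none of 12 tested Hippo genes was called. Among 6 tested receptors the integrin subunits Itga6 (-0.61 ± 0.19) and Itgav (-0.50 ± 0.06) fell. Of 12 tested SRF target genes 6 rose, each also on the immediate early list, and Filip1l fell by 0.63 ± 0.18. In the thinned neurons 6 SRF target genes rose and the fall of Filip1l was not called. No layer 6 corticothalamic gene of 8 was called.

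By size alone, Egr4 (2.07 ± 0.06), one of the marks used for activity above, stood beside Nr4a2 and Egr2 at the top. Igkc and Jchain, genes of antibody-producing cells, had larger fold changes, but 6073 of 6195 Igkc UMIs and 639 of 712 Jchain UMIs lay in 1 neuron barcode. At the other end were Tshz2, a zinc finger gene (2.50 to 4.43 against 21.2 to 34.0 CPM, -2.95 ± 0.08, adjusted p = 1.9e-15), Sostdc1, a secreted BMP and WNT antagonist (0.17 to 0.71 against 6.37 to 11.2 CPM, -4.70 ± 0.22), and Klhl14 (0 to 0.084 against 0.39 to 1.16 CPM, 29 UMIs in all). Gdf10 and Scn7a had no UMI in 3 of 4 Cyr61-positive groups and 0.39 to 1.27 and 0.19 to 0.78 CPM in the neurons without Cyr61.

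The split by Nov gave other genes. Neurons with a Nov UMI (834, 805, 810 and 552) against those without (677, 621, 572 and 221) gave 239 called genes of 13740, or 1.74%. Cyr61 was nearly level, at 202.9, 191.4, 199.3 and 264.3 CPM against 216.9, 208.4, 238.2 and 258.9 CPM (-0.12 ± 0.03, adjusted p = 0.0013, under the fold threshold and reversed in the sorted library). Ccdc80 had 4.80, 6.05, 7.57 and 10.2 CPM against 7.04, 6.49, 8.31 and 13.1 CPM (-0.28 ± 0.10, adjusted p = 0.056). None of 15 immediate early genes was called. Of 5 layer 6b genes 4 rose: Cplx3 (8.91 to 15.5 against 0.29 to 6.81 CPM, 1.88 ± 0.22), Svil (1.59 ± 0.25), Nxph4 (1.30 ± 0.19) and Ctgf (28.7 to 50.5 against 14.1 to 27.2 CPM, 0.89 ± 0.05, adjusted p = 1.5e-15). Wwtr1, which encodes TAZ, rose by 0.62 ± 0.22 at 1.68 to 2.32 against 0.97 to 1.49 CPM (adjusted p = 0.0496, edgeR). This call was lost in neurons thinned to 10000 UMIs, where none of 12 tested Hippo genes was called.

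The genes with the largest rise beside Nov were low ones: C1qtnf1 (0.46 to 0.83 against 0 to 0.15 CPM), Scara5 (0.37 to 1.24 against 0 to 0.15 CPM), Ucp2 (0.77 to 2.63 against 0 to 0.81 CPM), Bmpr1b, a BMP receptor (3.61 to 4.57 against 0.60 to 1.09 CPM, 2.18 ± 0.21), and Lancl3 (6.71 to 8.11 against 0.67 to 2.17 CPM, 2.17 ± 0.16). The lowest were Igkc, Jchain and Ighg2c, which again rest on single neuron barcodes (423 of 875 Ighg2c UMIs in 1), and the unnamed transcripts Gm26730 (-1.71 ± 0.56) and Gm42893 (-1.33 ± 0.37).

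The split by Ccdc80 came last. Neurons with a Ccdc80 UMI (158, 161, 178 and 172) against those without (1353, 1265, 1204 and 601) gave 694 called genes of 13475, or 5.15%. The positive neurons were deeper here too (medians of 25093 to 39916 against 22102 to 34369 UMIs). Cyr61 was higher in them, at 294.0, 312.2, 278.6 and 368.6 CPM against 197.7, 181.7, 204.2 and 228.2 CPM (0.66 ± 0.04, adjusted p = 1.7e-14). Nov was lower, at 32.6, 36.4, 35.6 and 39.2 CPM against 53.2, 54.0, 53.9 and 59.2 CPM (-0.58 ± 0.06, adjusted p = 4.5e-09). The groups did not overlap for either gene, and both passed the adjusted p but not the fold threshold once neurons were thinned to 10000 UMIs (0.49, adjusted p = 1.5e-09, and -0.46, adjusted p = 0.016).

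The layer 6b genes ran against Ccdc80: 4 of 5 fell. Cplx3 had 0 to 1.25 against 7.30 to 11.7 CPM (-4.02 ± 0.26, adjusted p = 8.2e-13), Svil 0 to 1.75 against 2.00 to 2.47 CPM (-1.70 ± 0.41) and Nxph4 1.42 to 3.01 against 2.74 to 3.86 CPM (-0.82 ± 0.24). Moxd1 had no UMI in the Ccdc80-positive neurons and 0.20 to 0.88 CPM in the others. In the thinned neurons 3 of these genes could be tested, and Cplx3 alone was called. Of 8 corticothalamic genes Sulf1, a sulfatase of heparan sulfate (92.2 to 101.6 against 62.9 to 73.8 CPM, 0.58 ± 0.05), and Ntsr1, a neurotensin receptor (0.56 ± 0.08), rose. Of 15 immediate early genes 6 rose, by 0.51 to 0.69: Egr2, Dusp1, Btg2, Ptgs2, Fos and Nr4a2. Of 14 tested YAP/TAZ targets Cyr61, Igfbp3 (33.3 to 46.3 against 22.5 to 29.3 CPM, 0.63 ± 0.07) and Crim1 (0.60 ± 0.04) rose and Rbms3 (-0.85 ± 0.23) fell, while none of 12 Hippo genes was called. In the thinned neurons Igfbp3 and Crim1 alone were called among 11 tested targets. There Tead1 fell, as the only called gene of 11 tested Hippo genes. Itgav, an integrin subunit that binds CCN proteins, fell from 18.5 to 23.9 CPM to 9.43 to 11.8 CPM (-1.04 ± 0.10, adjusted p = 2.1e-09), the only 1 of 6 tested receptors. Of 12 tested SRF target genes Egr2 and Fos rose and Filip1l fell by 1.78 ± 0.34. In the thinned neurons Egr2 alone of that list was called.

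By size alone, Tshz2 was among the lowest (0 to 1.25 against 9.66 to 14.5 CPM, -4.57 ± 0.28, adjusted p = 1.4e-13). Pappa2, a metalloprotease (0.74 to 1.23 CPM), and Gm12280 (0.28 to 1.48 CPM) were found only in neurons without Ccdc80, and Igkc again rests on 1 neuron barcode. The largest rises were Osr1 (23 UMIs in 17 neurons), Npy2r, a neuropeptide Y receptor (44 UMIs in 28 neurons), Igfn1 (25 UMIs in 17 neurons), Tmem215 (1.18 to 2.10 against 0.25 to 0.44 CPM, 2.00 ± 0.42) and Avpr1a, a vasopressin receptor (1.06 to 2.01 against 0.30 to 0.53 CPM, 1.98 ± 0.40).

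**Figure D4:**
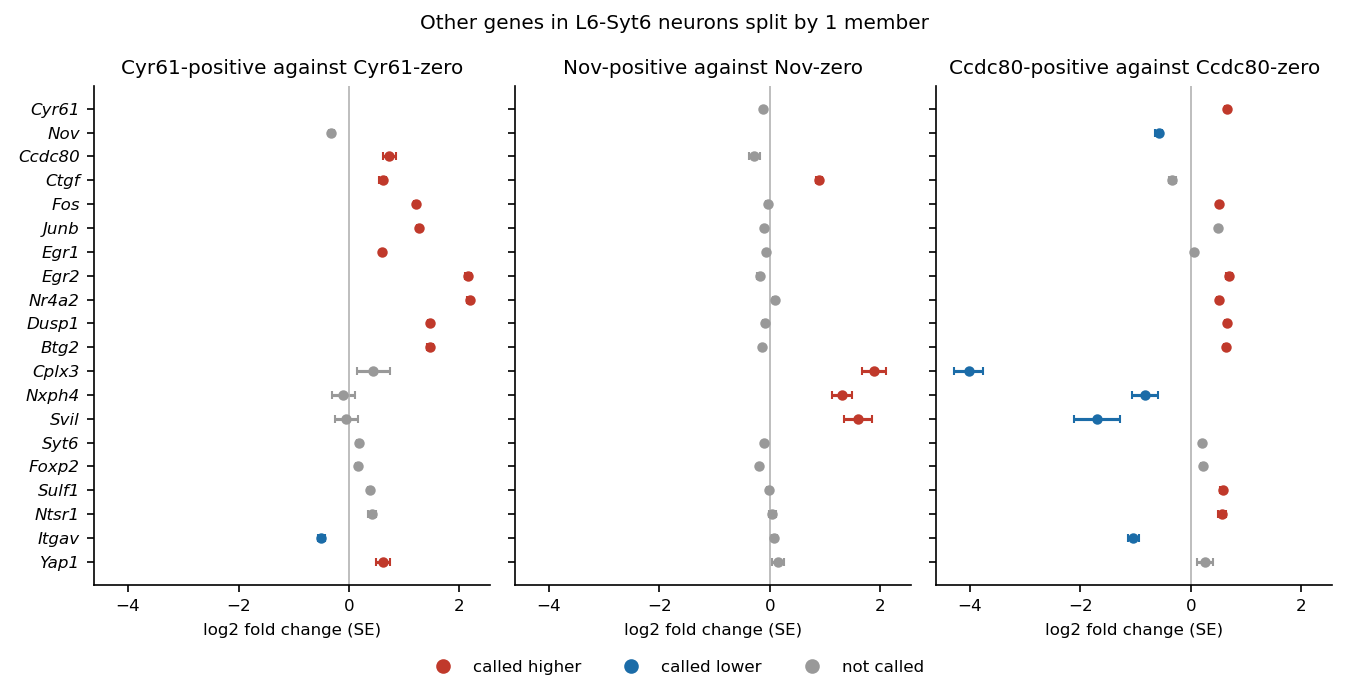
Log2 fold change with SE (horizontal axes) of 20 listed genes in L6-Syt6 neurons with against without a UMI of Cyr61, Nov or Ccdc80, 4 libraries; red and blue points passed adjusted p and fold threshold. The immediate early genes Fos to Btg2 lie right of 0 for Cyr61, while the layer 6b genes Cplx3, Nxph4 and Svil lie right of 0 for Nov and left of 0 for Ccdc80.

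Astrocytes and pericytes are the other Ccdc80-positive cells, and their summed markers were lower in Ccdc80-positive than in Ccdc80-zero L6-Syt6 neurons: 717.4 to 926.4 against 1200 to 1579 CPM for 7 astrocyte markers and 3.17 to 20.5 against 17.9 to 24.0 CPM for 6 pericyte markers. All of these markers were above 0 in both groups. The part of astrocyte or pericyte RNA in the Ccdc80 values was not tested. Endothelial markers were at 4.39 to 10.5 CPM in Cyr61-positive and 5.60 to 8.87 CPM in Cyr61-zero neurons. The 3 splits use the same neurons, so their gene lists are not independent of each other or of the activity split.

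The contrast that served to choose the genes is given as description. L6-Syt6 neurons with 5 or more UMIs of the viral barcode feature (431, 387, 376 and 441) were set against those with 0 (749, 766, 718 and 94), with 225 of 13436 genes, or 1.67%, past the same limits. Cyr61 stood at 282.9, 262.4, 277.0 and 327.9 CPM against 187.6, 179.8, 205.0 and 137.1 CPM. The course was not monotone: neurons with 1 to 4 barcode UMIs had 147.5, 147.7, 148.4 and 159.7 CPM, in the unsorted libraries less than those with 0. Neurons with 10 or more had 336.1, 283.8, 322.1 and 368.7 CPM. Nov was at 40.8 to 46.2 CPM against 55.3 to 74.7 CPM, and neurons with 1 to 4 barcode UMIs were already lower than those with 0 in each library. Ccdc80 was at 8.99, 9.20, 12.2 and 13.5 CPM against 4.30, 4.74, 5.87 and 6.69 CPM, with no step between 0 and 1 to 4 UMIs (4.31, 5.59, 6.44 and 6.82 CPM).

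**Figure D5:**
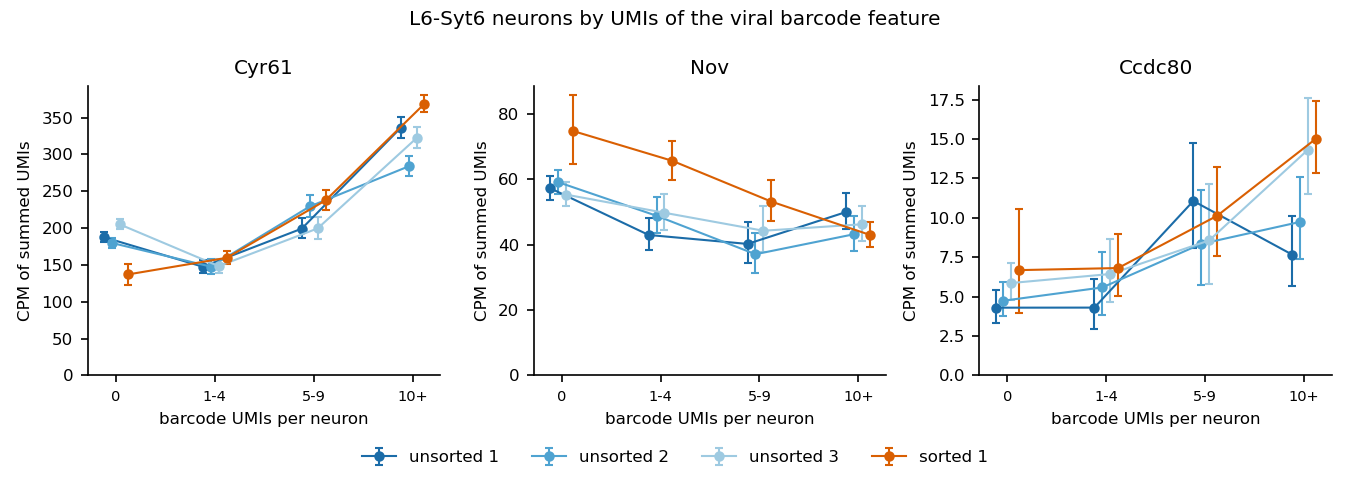
CPM of the 3 genes in L6-Syt6 neurons (vertical axes, linear from 0) by UMIs of the viral barcode feature per neuron (horizontal axes), 1 line per library with exact Poisson 95% intervals. Cyr61 dips at 1 to 4 UMIs in the 3 unsorted libraries, and Ccdc80 is level up to 4 UMIs.

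Activity transcripts and depth moved with the barcode. Barcode-high L6-Syt6 neurons had 1433, 1420, 1545 and 1631 CPM of the 5 activity genes together and barcode-zero neurons 1066, 1065, 1141 and 748.4 CPM, and their median totals were 24582 to 38604 against 21684 to 30096 UMIs. Within terciles of activity UMIs, a split added after these values had been seen, the log2 difference of Cyr61 between barcode-high and barcode-zero neurons was 0.10 ± 0.15 in the bottom, 0.25 ± 0.09 in the middle and 0.32 ± 0.05 in the top tercile, against 0.72 ± 0.12 without the split. That of Nov was -0.29 ± 0.13, -0.35 ± 0.13 and -0.21 ± 0.13, against -0.39 ± 0.06. That of Ccdc80 was 1.55 ± 0.38 in the middle and 0.83 ± 0.28 in the top tercile, against 1.06 ± 0.10, and it was too low in the bottom tercile to be fitted. Summed astrocyte markers were 924.8 to 1171 CPM in barcode-high and 1231 to 1865 CPM in barcode-zero neurons, and pericyte markers 6.31 to 11.7 against 24.3 to 35.3 CPM. Endothelial markers were at 3.99 to 11.3 against 4.46 to 9.65 CPM. Of the 5 layer 6b genes 4 were lower in barcode-high neurons past the same limits, namely Cplx3, Nxph4, Moxd1 and Svil, with a median log2 difference of -1.53 over the list. The part of all these genes in the differences was not tested.

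The same contrast was read in the other subtypes, and whether the differences vary between subtypes was not tested. In L5-S100b (318 of 12030 genes past the limits, 2.64%) Nov was lower in barcode-high neurons, at 60.8, 68.9, 69.4 and 71.1 CPM against 114.4, 103.7, 77.4 and 112.5 CPM (log2 difference -0.56 ± 0.10), and Ccdc80 higher, at 24.9, 27.5, 22.8 and 22.1 CPM against 16.5, 11.9, 11.6 and 18.1 CPM (0.80 ± 0.19), while Cyr61 was at 0.29 ± 0.26. In L6-Npy (84 of 10839, 0.775%) Cyr61 was at 11.4, 12.4, 12.7 and 5.45 CPM against 2.88, 6.22, 2.60 and 5.10 CPM (1.29 ± 0.34), a difference carried by the 3 unsorted libraries. All L6-Npy neurons of such a library held only 45 to 48 Cyr61 UMIs, and single neurons held up to 17, 18 and 18 of them. Nov (-0.15 ± 0.07) and Ccdc80 (-0.03 ± 0.13) were close to level there, although Ccdc80 is highest in this subtype. In L2/3-Rorb (15 of 10572, 0.142%) the values were -0.06 ± 0.36 for Cyr61, -0.31 ± 0.14 for Nov and 0.22 ± 0.37 for Ccdc80. Cyr61 was lower in barcode-high L2/3-Rorb neurons in unsorted library 3 alone (10.3 against 27.5 CPM), where Ccdc80 was at 12.7 against 1.53 CPM. In the 3 unsorted libraries, L2/3-Calb1 gave 1.58 ± 0.57 for Cyr61 on 0 to 32.6 CPM, with Nov at -0.27 ± 0.12, and L5-Bcl6 gave 0.09 ± 0.53 for Cyr61 and -0.19 ± 0.12 for Nov. The L2/3-Calb1 neurons held 4 to 36 Cyr61 UMIs per unsorted library, with up to 14 in 1 neuron. Their sorted library went the other way for Cyr61, with 0 against 4.70 CPM. In the sorted library Nov was the higher one in barcode-high neurons of L2/3-Rorb (60.9 against 53.8 CPM) and L5-Bcl6 (187.9 against 160.8 CPM), and in L5-Htr2c, which was not fitted, its sign differed between libraries.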

How the data were processed

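The authors made the deposited raw UMI counts with Cell Ranger from Chromium 3′ libraries, against mm10 with the projection barcodes added, without normalization; the deposited metadata name the authors' excitatory subtypes. Totals exclude the viral feature. For each library, the UMIs of a group of cells were added up and compared in edgeR 4.0.16 (R 4.3.3; TMM, filterByExpr, quasi-likelihood, library as a block) over all genes, for groups of at least 10 neurons in every library. Other cells were kept at 1000 to 60000 UMIs, 500 to 8000 genes and a mitochondrial share below 20%, and clustered in scanpy 1.11.5 without the 3 genes and named from marker lists; no doublet caller was run, and clusters with markers of more than 1 class stayed unnamed. Of the listed genes, at most 25 called ones per contrast were named by size, with the 5 highest and 5 lowest called genes of each detection split. The fits were tested on simulated data. The 3 genes, the lists and the tests were chosen with earlier results of these data known. Alternatives were DESeq2 1.42.0, no filter, no block, left-out libraries, other thresholds and neurons of the metadata thinned to 10000 UMIs. Other cells were thinned to 2000 UMIs.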

Additional observations from a re-analysis of the deposited data

Results flagged for a closer look

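The sign of the ratio of Nov with activity differed between subtypes. In L2/3-Rorb its log2 ratio of the top to the bottom tercile of activity UMIs was above 0 in all 4 libraries (0.0022 to 0.29, mean 0.10). In L2/3-Calb1 (mean -0.40), L5-S100b (mean -0.51) and L6-Syt6 (mean -0.58) it was below 0 in all 4. The means thus lay 0.504, 0.608 and 0.683 apart in that order. The difference between subtypes was not tested, and the lowest value in L2/3-Rorb is next to 0. The fit of Nov in L2/3-Rorb, given above, called no change.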

How the results depend on the processing

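Cyr61 kept its rise with activity in L6-Syt6 under every alternative run, and the values of the barcode contrast kept their sign for Cyr61 and Nov in L6-Syt6. Counts of genes moved more. With the barcode contrast, L2/3-Rorb (15) gave 0 in DESeq2, 28 unfiltered, 0 without the block, 9 at 1 or more UMIs, 6 thinned and 3 to 35 with a library left out; L5-S100b (318) gave 144, 56 without the block, 202 at 1 or more, 183 thinned and 180 to 285; L6-Npy (84) gave 11, 0 without the block, 27, 44 and 46 to 75; L6-Syt6 (225) gave 75 without the block, 25 at 1 or more, 121, 62 and 48 within the bottom, middle and top tercile of activity and 29 to 325. The counts of 0 stand beside 720 and 1132 genes at an unadjusted p under 0.05 in edgeR. The activity contrast (123) gave 63 in DESeq2, 64 without the block, 493 thinned, 1201 by terciles and 62 to 393. Splits by Cyr61 (554), Nov (239) and Ccdc80 (694) gave 340, 100 and 427 in DESeq2 and 277, 55 and 401 without the block; barcode-zero neurons gave 326 for Cyr61 and 458 for Ccdc80, and thinning 347 for Ccdc80. For Nov in the activity contrast of L6-Syt6 (-0.49), leaving out a library gave -0.76 to 0.024 (the latter without the sorted one), thinned -0.53 (adjusted p = 0.0025) and by terciles -0.51; for Ccdc80 (-0.58) it was 0.014 thinned and 1.36 by terciles. Ccdc80 in Cyr61-positive neurons was 0.76 without the block and 0.49 in barcode-zero neurons, and Cyr61 and Nov in thinned Ccdc80-positive neurons 0.49 and -0.46. With the barcode, Ccdc80 was 1.42 thinned in L5-S100b and 0.18 in L6-Npy, and in L6-Syt6 1.14 without the block, 0.76 at 1 or more UMIs, 1.15 thinned and 1.55 and 0.83 in the middle and top tercile; Cyr61 was 0.10, 0.25 and 0.32 by tercile. As the mean of per-cell CPM and thinned, Ccdc80 in L6-Npy was 41.4 and 43.6 CPM, Cyr61 in L6-Syt6 193.1 and 192.0 CPM and Nov in L6-Syt6 53.5 and 53.0 CPM. Thinning leaves fewer counts; for the rest the cause was not tested. Restricting the activity contrast to barcode-zero neurons, and the barcode contrast to neurons without activity UMIs, left too few neurons.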
